A study of Homo sapiens with 18 samples.

Results

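Interferon response and antigen presentation was followed here as a set of 42 named genes by RNA sequencing of 16D cells, a line of prostate cancer that grows despite castration. The members were the rows whose gene name was on a list of 42 symbols, out of 26863 symbols in the table. The rule uses no measured value, but the list was chosen with earlier results of these data known. Counts against all genes tested are therefore not those of a list chosen blind. All cells carried Cas9 and 1 guide RNA delivered by lentivirus. The sgAAVS cells (control) had a guide against AAVS, a safe-harbour site, and the sgOGDHL_1 and sgOGDHL_2 cells (guide 1 and guide 2) had guides against OGDHL, which encodes a relative of a subunit of the mitochondrial 2-oxoglutarate dehydrogenase complex. Treatment lasted 6 weeks, with the vehicle DMSO or with 10 µM of enzalutamide (Enza), an antagonist of the androgen receptor used against prostate cancer. Each of the 6 groups had 3 libraries, 18 in all. The labels name 1 cell line and do not say whether the cells were a clone or a pool, or whether the libraries of a group were grown apart, so a p-value reflects no more than the scatter among these libraries, and that scatter may be technical.

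Interferons are secreted proteins that bind receptors on the cell surface and activate JAK kinases. The kinases phosphorylate STAT proteins, and STAT2 with IRF9 enters a complex that binds a DNA element called ISRE and switches on interferon-stimulated genes, many of which block viruses. Class I antigen presentation overlaps this programme: proteasomes cut proteins into peptides, TAP carries them into the endoplasmic reticulum, and they are loaded there on a heavy chain paired with beta-2 microglobulin for display to T cells. Both systems work at some level in most epithelial cells, and loss of class I display is a known feature of many prostate cancers.

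Values are TPM, a length-corrected share of each library's transcripts, over the nuclear genome, after the 37 mitochondrially encoded rows were dropped and each library was rescaled. TPM keeps no record of depth, so the depth behind a value was unknown. The mitochondrial rows had held between 50.1% and 73.8% of the deposited TPM, with 73.8%, 69.9% and 57.2% in guide 1 vehicle libraries 1, 2 and 3. OGDHL had 4.72 ± 0.12 TPM (SD, n = 3) in control and 2.46 ± 0.63 TPM in guide 1 vehicle cells, and 7.64 ± 0.21, 2.49 ± 0.17 and 4.28 ± 0.12 TPM in control, guide 1 and guide 2 cells in enzalutamide. In vehicle the libraries labelled guide 2 had 6.67 ± 0.58 TPM of OGDHL, above the control, which goes against their label. The same 3 libraries stood apart across all genes: their correlation with the other 15 on the log2 scale lay between 0.937 and 0.956, against 0.971 to 0.997 among those 15, and they had 1407 to 1630 rows at 0, against 3042 to 4498. The 6 luminal prostate markers were present in every group, with 2193 to 3927 TPM summed. The 8 leukocyte markers summed to between 0.661 and 4.83 TPM, with the libraries labelled guide 2 in vehicle highest at 4.16 to 4.83 TPM, against 0.661 to 2.22 TPM elsewhere. LYZ had 2.52 to 2.59 TPM and ITGAM 0.350 to 0.417 TPM in those libraries, against 0.107 to 0.432 and at most 0.0124 TPM in the others, and PTPRC was at or under 0.0028 TPM everywhere. Endothelial markers summed to 0.728 to 0.833 TPM there and to 0.0952 to 0.633 TPM elsewhere, and fibroblast markers to 14.7 to 18.8 TPM there, 13.8 to 17.3 TPM in the other vehicle libraries and 8.39 to 11.6 TPM in enzalutamide. The part of any of these in the results below was not tested, and in bulk samples fewer cells of a type and less RNA per cell cannot be told apart.

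The promoters of several members are shown because these genes share a DNA element and yet moved in opposite directions with enzalutamide. RefSeq promoter windows on GRCh38.p14, from 250 bases before to 50 bases after a start site, were at hand for 35 of the 42 members. The core of the ISRE was searched as GAAANNGAAA on both strands (read as TTTCNNTTTC on the other strand), and it lay in a window of 26 of the 35 members (74.3%), against 4.38% of 27305 genes with a window. The shorter STAT element TTCNNNGAA, which reads the same on both strands and may overlap an ISRE core, lay in windows of 10 members (28.6%), against 9.38% of genes. No ISRE core was found in the windows of HLA-B, HLA-C, PSMB9, STAT2, IRF1, IRF9, IFI35, OAS1 and ADAR, which says only that these letters are not there. The lines below give 5′ to 3′ stretches on each gene's own strand, ahead of the start site, with every ISRE core in capitals. IFIT1, SAMD9 and IFI6 rose with enzalutamide in control cells, the change of ISG15 did not pass the test, and IFI44 and B2M fell. IFIT1 (chr10:89392487-89392545, plus strand) and SAMD9 (chr7:93118086-93118135, minus strand) come first.
IFIT1: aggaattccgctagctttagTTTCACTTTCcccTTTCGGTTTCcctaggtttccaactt
SAMD9: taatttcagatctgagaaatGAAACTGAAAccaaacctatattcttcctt
IFI6 (chr1:27672256-27672368, minus strand) has 3 cores, and ISG15 (chr1:1013364-1013419, plus strand) has 2 that overlap.
IFI6: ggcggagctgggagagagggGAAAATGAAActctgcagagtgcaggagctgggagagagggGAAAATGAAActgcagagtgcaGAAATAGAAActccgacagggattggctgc
ISG15: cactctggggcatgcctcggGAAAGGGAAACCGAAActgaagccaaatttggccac
IFI44 (chr1:78649751-78649788, plus strand) and B2M (chr15:44711353-44711408, plus strand) also hold the core, with a single one in IFI44 and 2 that overlap in B2M.
IFI44: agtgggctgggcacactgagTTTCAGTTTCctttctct
B2M: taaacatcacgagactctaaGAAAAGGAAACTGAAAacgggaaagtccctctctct

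Members spanned levels from near 0 to 561 TPM (B2M). In control vehicle cells 14 of the 42 had a mean under 1 TPM, 14 between 1 and 10, 12 between 10 and 100 and 2 at 100 or more. In total 37 members passed the filter for testing (1 TPM or more in at least 3 libraries), and 5 did not: PSMB9 (0.0857 to 0.646 TPM over the 18 libraries), IFIT3 (0.0771 to 0.643), IFI27 (0.0432 to 0.824), OAS2 (0.0026 to 0.134) and DDX60 (0.290 to 0.556). ERAP2 and OAS1 passed only through the libraries labelled guide 2 in vehicle, so a difference in those 2 genes there was built into the filter. IFIH1 reached 1 TPM in 4 libraries, all 3 of control in enzalutamide and 1 of guide 1 in vehicle, so its higher level in control cells in enzalutamide was likewise built in. PSMB8 depended in the same way on guide 2 in enzalutamide. IRF1 reached 1 TPM only in libraries labelled guide 2, in vehicle and in enzalutamide, so its higher level there was built in as well. NLRC5 reached 1 TPM only in enzalutamide libraries and ISG20 only in vehicle libraries. A rise of NLRC5 and a fall of ISG20 with enzalutamide were therefore built into the filter. HLA-F reached 1 TPM in all enzalutamide libraries and, in vehicle, only in some of those labelled guide 2. Its rise with enzalutamide was built in likewise. Of the members 9 lay in the major histocompatibility complex region of chromosome 6. The gene models of PARP9 and DTX3L (340 bases), HLA-B and HLA-C (2640 bases), PSMB8 and PSMB9 (568 bases) and PSMB9 and TAP1 (8770 bases) overlap in GENCODE release 29. How reads in such overlaps, and among the near-identical HLA genes, were assigned is not given in the sources used here, and the values of these genes are uncertain to that extent.

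**Figure D1:**
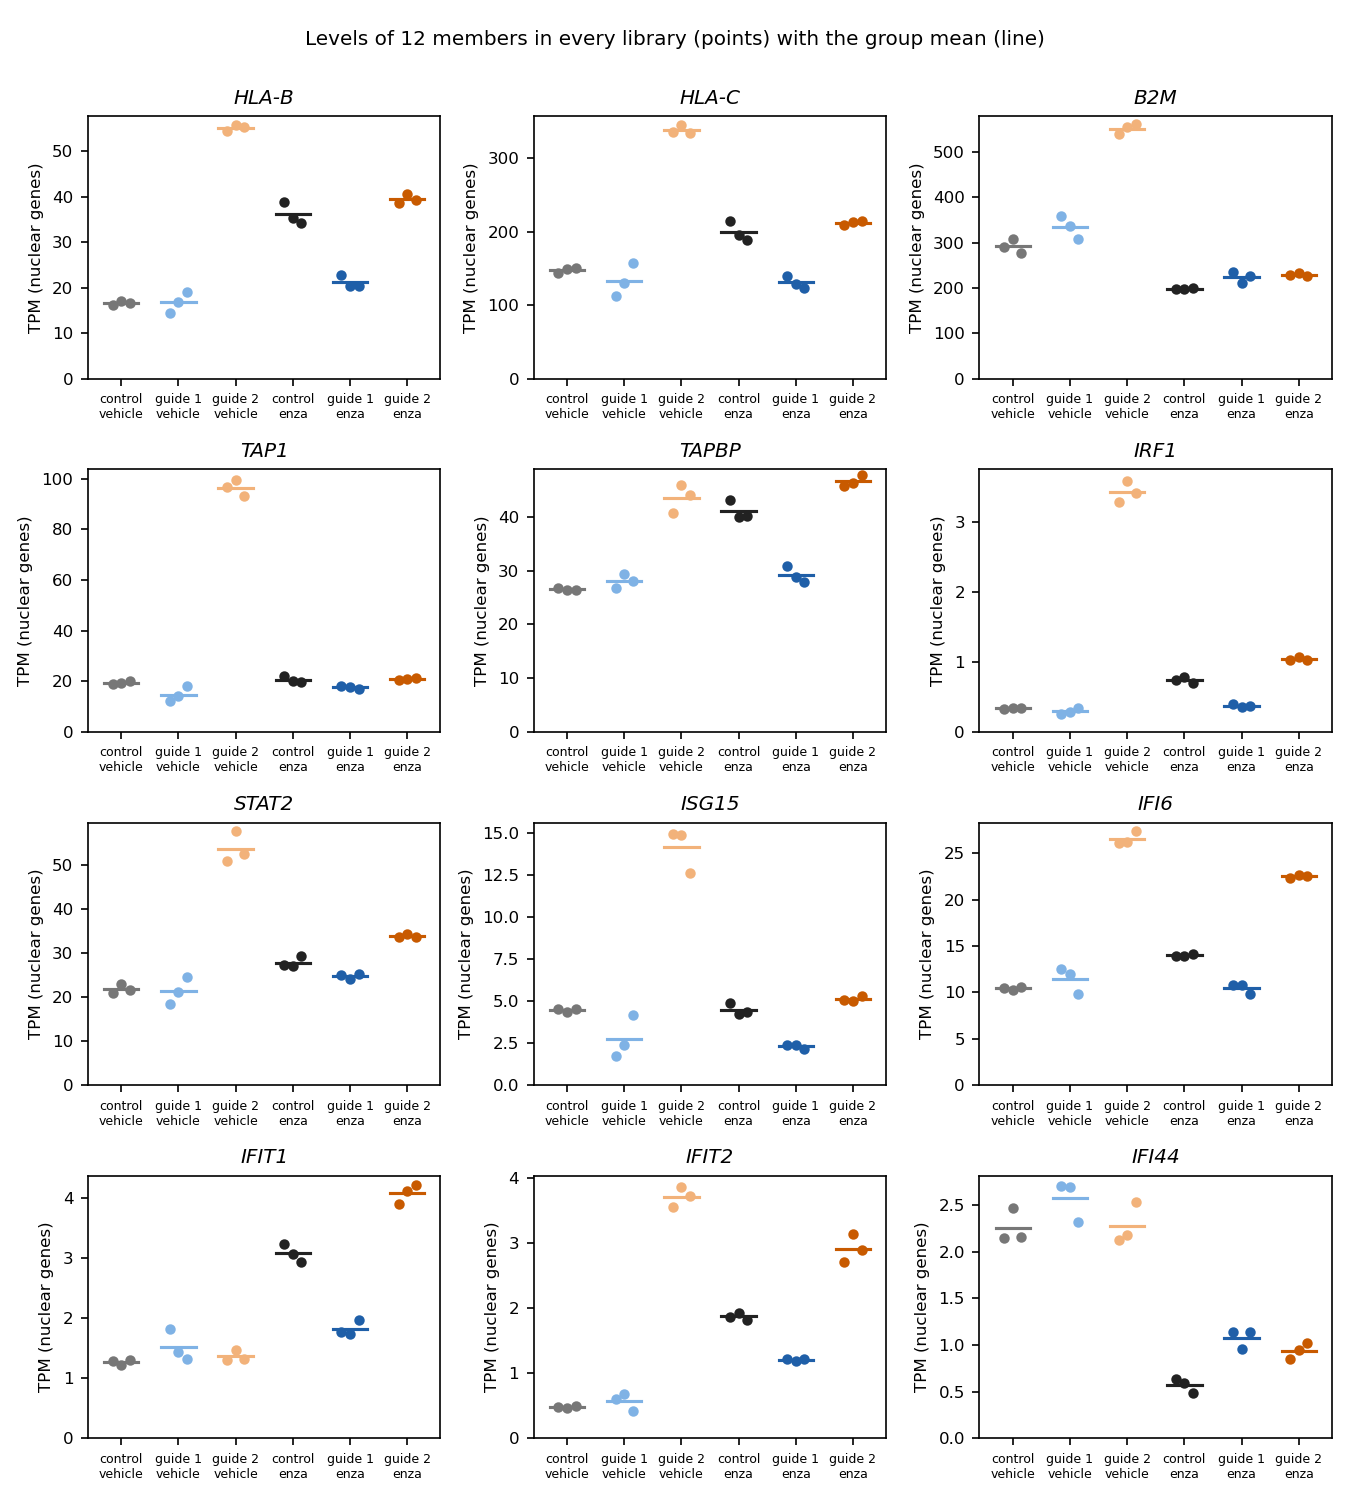
Levels of 12 members in every library, in TPM of the nuclear genome on linear axes that start at 0, with 1 panel per gene; points are libraries and the line is the mean of the 3 in a group. HLA-B sat between 34.3 and 39.0 TPM in control cells in enzalutamide and between 20.3 and 22.9 TPM with guide 1, while IFI44 was below every vehicle library in all 3 enzalutamide groups.

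Among the class I chains, HLA-B (chromosome 6, 31269491 to 31357188, minus strand, GRCh38) encodes a classical heavy chain. In vehicle HLA-B had 16.2, 17.2 and 16.7 TPM in control, 14.5, 16.9 and 19.1 TPM in guide 1 and 54.5, 55.7 and 55.3 TPM in the libraries labelled guide 2. In enzalutamide HLA-B had 39.0, 35.3 and 34.3 TPM in control, 22.9, 20.4 and 20.3 TPM in guide 1 and 38.7, 40.7 and 39.3 TPM in guide 2. The libraries labelled guide 2 in vehicle were highest, guide 1 in enzalutamide lay below the other enzalutamide groups, and control and guide 2 overlapped in enzalutamide. HLA-C, the other classical heavy chain measured here, was the more abundant. In vehicle HLA-C had 144, 149 and 151 TPM in control, 112, 130.2 and 157 TPM in guide 1 and 335, 346 and 333 TPM in the libraries labelled guide 2. In enzalutamide HLA-C had 214, 196 and 188 TPM in control, 139.8, 129 and 123 TPM in guide 1 and 209, 213 and 214 TPM in guide 2. The libraries labelled guide 2 in vehicle were again highest and control and guide 2 overlapped in enzalutamide, while guide 1 in enzalutamide lay within the range of guide 1 in vehicle and below every control vehicle library. HLA-F, a non-classical heavy chain, was near 1 TPM in vehicle. In vehicle HLA-F had 0.821, 0.894 and 0.893 TPM in control, 0.774, 0.989 and 0.879 TPM in guide 1 and 0.956, 1.03 and 1.04 TPM in the libraries labelled guide 2. In enzalutamide HLA-F had 2.04, 1.82 and 1.82 TPM in control, 1.62, 1.56 and 1.44 TPM in guide 1 and 1.86, 2.17 and 2.01 TPM in guide 2. All 9 enzalutamide libraries exceeded all 9 vehicle libraries for HLA-F. B2M (chromosome 15, 44711487 to 44718877, plus strand) encodes the light chain shared by all class I molecules. In vehicle B2M had 291, 307 and 277 TPM in control, 358, 338 and 308 TPM in guide 1 and 539.9, 554 and 561 TPM in the libraries labelled guide 2. In enzalutamide B2M had 198, 198 and 199.8 TPM in control, 235, 209.8 and 227 TPM in guide 1 and 228, 233 and 225 TPM in guide 2. Every enzalutamide library was below every vehicle library for B2M, which is the reverse of HLA-F. HLA-B per B2M, a ratio of TPM levels within a library, was 0.0573 ± 0.0027, 0.0509 ± 0.011 and 0.10 ± 0.0013 in control, guide 1 and the libraries labelled guide 2 in vehicle and 0.182 ± 0.013, 0.0946 ± 0.0045 and 0.173 ± 0.0027 in the same order in enzalutamide. The ratio in control cells in enzalutamide therefore exceeded that of every other group but guide 2 in enzalutamide, whose highest library (0.174) overlapped its lowest (0.172). HLA-E, a non-classical chain that engages an inhibitory receptor of natural killer cells, ranged from 27.4 to 52.9 TPM.

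Of the genes that supply peptides, TAP1 (chromosome 6, 32845209 to 32853978, minus strand) and TAP2 encode the paired chains of the peptide transporter. In vehicle TAP1 had 19.0, 19.3 and 19.9 TPM in control, 12.1, 14.1 and 17.9 TPM in guide 1 and 96.9, 99.4 and 93.1 TPM in the libraries labelled guide 2. In enzalutamide TAP1 had 21.9, 20.2 and 19.9 TPM in control, 17.9, 17.9 and 17.0 TPM in guide 1 and 20.4, 20.8 and 21.2 TPM in guide 2. The libraries labelled guide 2 in vehicle were far above all others, and the remaining 15 libraries kept between 12.1 and 21.9 TPM. In vehicle TAP2 had 19.9, 21.0 and 19.9 TPM in control, 17.4, 19.6 and 21.2 TPM in guide 1 and 9.47, 10.9 and 10.5 TPM in the libraries labelled guide 2. In enzalutamide TAP2 had 17.1, 16.1 and 16.9 TPM in control, 17.98, 16.9 and 17.4 TPM in guide 1 and 15.02, 15.7 and 16.4 TPM in guide 2. TAP2 was lowest where TAP1 was highest, and in enzalutamide the control range of TAP2 overlapped those of both guides. TAPBP encodes tapasin, which holds the heavy chain at the transporter. In vehicle TAPBP had 26.7, 26.4 and 26.4 TPM in control, 26.8, 29.5 and 28.1 TPM in guide 1 and 40.8, 45.9 and 44.1 TPM in the libraries labelled guide 2. In enzalutamide TAPBP had 43.3, 40.1 and 40.2 TPM in control, 30.9, 28.9 and 28.0 TPM in guide 1 and 45.8, 46.4 and 47.8 TPM in guide 2. Guide 1 in enzalutamide overlapped guide 1 in vehicle, while control and guide 2 libraries in enzalutamide were at 40.1 TPM or more. PSMB10 encodes a catalytic subunit of the immunoproteasome. In vehicle PSMB10 had 32.7, 32.8 and 34.8 TPM in control, 18.8, 20.3 and 29.9 TPM in guide 1 and 43.3, 46.2 and 40.0 TPM in the libraries labelled guide 2. In enzalutamide PSMB10 had 41.5, 38.1 and 36.9 TPM in control, 31.7, 28.5 and 26.9 TPM in guide 1 and 38.8, 39.8 and 39.8 TPM in guide 2. Guide 1 vehicle libraries 1 and 2, of the highest mitochondrial shares, were the lowest of all 18 for PSMB10. The other members of this group were lower: PSMB8, another immunoproteasome subunit, ranged from 0.378 to 1.17 TPM, and the peptide-trimming enzymes ERAP1 and ERAP2 from 4.33 to 11.2 and from 0.338 to 1.97 TPM.

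Among the regulators, NLRC5 is the transactivator of class I genes. In vehicle NLRC5 had 0.590, 0.720 and 0.674 TPM in control, 0.404, 0.584 and 0.792 TPM in guide 1 and 0.596, 0.746 and 0.672 TPM in the libraries labelled guide 2. In enzalutamide NLRC5 had 1.34, 1.56 and 1.38 TPM in control, 0.990, 1.04 and 0.968 TPM in guide 1 and 1.77, 1.92 and 1.70 TPM in guide 2. The vehicle groups overlapped, and all 9 enzalutamide libraries exceeded all 9 vehicle libraries for NLRC5. STAT2 (chromosome 12, 56341597 to 56360155, minus strand) carries the interferon signal to the nucleus. In vehicle STAT2 had 20.9, 23.0 and 21.6 TPM in control, 18.3, 21.1 and 24.6 TPM in guide 1 and 50.8, 57.6 and 52.4 TPM in the libraries labelled guide 2. In enzalutamide STAT2 had 27.3, 26.9 and 29.2 TPM in control, 25.0, 24.0 and 25.1 TPM in guide 1 and 33.6, 34.4 and 33.5 TPM in guide 2. In enzalutamide its 3 groups did not overlap, with guide 2 highest and guide 1 lowest. IRF9 gives the STAT complex its DNA contact. In vehicle IRF9 had 7.86, 8.32 and 7.94 TPM in control, 8.23, 8.99 and 10.2 TPM in guide 1 and 18.2, 20.5 and 20.2 TPM in the libraries labelled guide 2. In enzalutamide IRF9 had 6.55, 8.09 and 8.05 TPM in control, 6.90, 5.77 and 6.44 TPM in guide 1 and 7.89, 8.13 and 8.94 TPM in guide 2. Apart from the libraries labelled guide 2 in vehicle, IRF9 stayed between 5.77 and 10.2 TPM. IRF1, an activator induced by interferon, was low in most groups. In vehicle IRF1 had 0.324, 0.336 and 0.343 TPM in control, 0.260, 0.288 and 0.340 TPM in guide 1 and 3.29, 3.59 and 3.41 TPM in the libraries labelled guide 2. In enzalutamide IRF1 had 0.735, 0.792 and 0.695 TPM in control, 0.392, 0.358 and 0.366 TPM in guide 1 and 1.02, 1.07 and 1.03 TPM in guide 2. The libraries labelled guide 2 in vehicle were the highest, and guide 2 and control in enzalutamide followed without overlap. IRF7 amplifies the production of type I interferon. In vehicle IRF7 had 5.53, 5.87 and 6.27 TPM in control, 2.38, 3.78 and 5.78 TPM in guide 1 and 20.6, 21.0 and 20.1 TPM in the libraries labelled guide 2. In enzalutamide IRF7 had 7.05, 7.46 and 6.31 TPM in control, 5.15, 4.55 and 4.35 TPM in guide 1 and 6.66, 7.45 and 8.16 TPM in guide 2. Guide 1 vehicle libraries ranged more widely for IRF7 than any other group. IRF2, which can oppose IRF1, ranged from 0.971 to 2.01 TPM, and IRF3, which is activated by modification of its protein more than by its level, from 26.0 to 45.5 TPM.

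Among the interferon-stimulated effectors, ISG15 (chromosome 1, 1001138 to 1014540, plus strand) encodes a ubiquitin-like protein that is attached to other proteins. In vehicle ISG15 had 4.53, 4.36 and 4.54 TPM in control, 1.72, 2.38 and 4.19 TPM in guide 1 and 14.99, 14.9 and 12.6 TPM in the libraries labelled guide 2. In enzalutamide ISG15 had 4.88, 4.26 and 4.33 TPM in control, 2.40, 2.40 and 2.13 TPM in guide 1 and 5.10, 4.99 and 5.33 TPM in guide 2. Control libraries in vehicle and in enzalutamide overlapped, and guide 1 libraries were below both in each condition. IFIT1 (chromosome 10, 89392546 to 89406486, plus strand) encodes a protein that binds viral RNA. In vehicle IFIT1 had 1.29, 1.22 and 1.31 TPM in control, 1.83, 1.45 and 1.31 TPM in guide 1 and 1.30, 1.47 and 1.32 TPM in the libraries labelled guide 2. In enzalutamide IFIT1 had 3.24, 3.08 and 2.95 TPM in control, 1.77, 1.75 and 1.97 TPM in guide 1 and 3.91, 4.12 and 4.23 TPM in guide 2. The vehicle groups overlapped or touched near 1.3 TPM, and the 3 enzalutamide groups were separate, in the order guide 2, control and guide 1. IFIT2, from the same family and the same cluster on chromosome 10, differed from IFIT1 in vehicle. In vehicle IFIT2 had 0.488, 0.474 and 0.492 TPM in control, 0.605, 0.688 and 0.419 TPM in guide 1 and 3.55, 3.87 and 3.73 TPM in the libraries labelled guide 2. In enzalutamide IFIT2 had 1.87, 1.93 and 1.83 TPM in control, 1.21, 1.20 and 1.23 TPM in guide 1 and 2.71, 3.14 and 2.89 TPM in guide 2. It was highest in the libraries labelled guide 2 in vehicle, and the enzalutamide groups took the order of IFIT1. IFIT5 was the most abundant of the family. In vehicle IFIT5 had 9.01, 10.1 and 9.16 TPM in control, 12.5, 12.1 and 10.2 TPM in guide 1 and 8.39, 9.42 and 9.74 TPM in the libraries labelled guide 2. In enzalutamide IFIT5 had 18.7, 16.4 and 16.9 TPM in control, 15.6, 14.3 and 16.2 TPM in guide 1 and 16.4, 16.0 and 15.9 TPM in guide 2. All enzalutamide libraries were above all vehicle libraries for IFIT5, and the 3 enzalutamide groups lay close together. IFI6 encodes a protein of the endoplasmic reticulum that limits viral replication. In vehicle IFI6 had 10.5, 10.3 and 10.5 TPM in control, 12.6, 12 and 9.83 TPM in guide 1 and 26.1, 26.2 and 27.5 TPM in the libraries labelled guide 2. In enzalutamide IFI6 had 13.9, 13.9 and 14.2 TPM in control, 10.8, 10.8 and 9.78 TPM in guide 1 and 22.3, 22.7 and 22.6 TPM in guide 2. Guide 2 in enzalutamide stood above control, which stood above guide 1. IFI44 (chromosome 1, 78649796 to 78664078, plus strand) is a widely used marker of the interferon response. In vehicle IFI44 had 2.14, 2.46 and 2.15 TPM in control, 2.70, 2.69 and 2.32 TPM in guide 1 and 2.12, 2.17 and 2.53 TPM in the libraries labelled guide 2. In enzalutamide IFI44 had 0.634, 0.598 and 0.489 TPM in control, 1.14, 0.952 and 1.13 TPM in guide 1 and 0.850, 0.940 and 1.02 TPM in guide 2. Its vehicle groups overlapped at 2.12 TPM or more, and all enzalutamide libraries were at 1.14 TPM or less.

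OAS3 encodes a sensor of double-stranded RNA that makes the second messenger of RNase L. In vehicle OAS3 had 6.85, 7.37 and 7.32 TPM in control, 6.06, 6.83 and 6.65 TPM in guide 1 and 6.86, 7.81 and 8.29 TPM in the libraries labelled guide 2. In enzalutamide OAS3 had 8.76, 8.27 and 8.54 TPM in control, 9.60, 9.74 and 10.1 TPM in guide 1 and 8.27, 7.79 and 8.61 TPM in guide 2. Guide 1 was the lowest group in vehicle and the highest in enzalutamide. DTX3L (chromosome 3, 122564238 to 122575203, plus strand) encodes a ubiquitin ligase that partners PARP9. In vehicle DTX3L had 46.8, 51.6 and 48.0 TPM in control, 53.1, 53.7 and 49.3 TPM in guide 1 and 94.8, 103 and 102 TPM in the libraries labelled guide 2. In enzalutamide DTX3L had 87.3, 81.1 and 88.6 TPM in control, 83.3, 76.0 and 82.6 TPM in guide 1 and 99.5, 97.2 and 101 TPM in guide 2. Enzalutamide libraries of control and guide 1 lay between their vehicle libraries and those labelled guide 2. The start sites of DTX3L and PARP9 are 339 bases apart on opposite strands, and PARP9 ranged from 15 to 25.5 TPM. PARP14 is an ADP-ribosyltransferase encoded near them. In vehicle PARP14 had 6.13, 6.68 and 6.25 TPM in control, 7.54, 7.71 and 6.88 TPM in guide 1 and 14.5, 16.4 and 15.5 TPM in the libraries labelled guide 2. In enzalutamide PARP14 had 8.16, 7.86 and 8.67 TPM in control, 8.74, 8.15 and 8.63 TPM in guide 1 and 11.2, 10.8 and 10.8 TPM in guide 2. The libraries labelled guide 2 in vehicle were above the other vehicle libraries, and guide 2 was above the other guides in enzalutamide. SAMD9 encodes a restriction factor of poxviruses. In vehicle SAMD9 had 0.961, 1.21 and 1.01 TPM in control, 1.44, 1.23 and 1.06 TPM in guide 1 and 1.74, 1.88 and 2.15 TPM in the libraries labelled guide 2. In enzalutamide SAMD9 had 2.42, 2.01 and 2.31 TPM in control, 1.29, 1.17 and 1.51 TPM in guide 1 and 2.94, 2.78 and 2.88 TPM in guide 2. Guide 1 in enzalutamide reached down to guide 1 in vehicle, while the control and guide 2 libraries in enzalutamide were at 2.01 TPM or more. The other effectors were low: ISG20 (an exonuclease) ranged from 0.334 to 2.66 TPM, IFI35 from 0.312 to 1.43, OAS1 from 0.140 to 1.94 and MX1 (a GTPase that traps viral particles) from 1.13 to 1.87.

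Among the sensors, EIF2AK2 encodes the kinase PKR, which halts translation on sensing double-stranded RNA. In vehicle EIF2AK2 had 7.06, 7.68 and 6.80 TPM in control, 10.6, 9.57 and 7.93 TPM in guide 1 and 9.05, 9.82 and 10.1 TPM in the libraries labelled guide 2. In enzalutamide EIF2AK2 had 9.81, 8.90 and 10.5 TPM in control, 9.15, 8.34 and 9.36 TPM in guide 1 and 10.4, 9.78 and 10.3 TPM in guide 2. Control vehicle libraries were the lowest, and guide 1 vehicle libraries 1 and 2 were near the level of the enzalutamide groups. ADAR, which edits adenosine in double-stranded RNA, was abundant and even, from 79.9 to 108 TPM, and IFIH1, the RNA sensor MDA5, ranged from 0.444 to 1.25 TPM.

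Enzalutamide in control cells raised most of the set, with B2M as the main exception among the class I chains. The heavy chains HLA-B, HLA-C, HLA-E and HLA-F, tapasin, NLRC5, STAT2, IRF1, 3 IFIT genes and DTX3L rose. B2M, TAP2, ISG20, IFI44, OAS1, MX1 and ERAP2 fell. The calls of NLRC5, HLA-F and ISG20 were built into the filter, as above. A rise of the sensor IFIH1 was built in too, because it was tested only through control cells in enzalutamide. Of the 37 tested members 22 rose and 7 fell (78.4% called), against 47.9% of the 16067 genes tested called in either direction, 23.1% higher and 24.8% lower. The median log2 change was 0.33 over the tested members and -0.0090 over all genes tested. By group, 4 of 5 class I chains rose and 1 fell, 3 of 7 tested peptide supply genes rose and 2 fell, 3 of 7 regulators rose, 10 of 15 tested effectors rose and 4 fell, and 2 of 3 tested sensors rose. HLA-B rose 2.17-fold in mean TPM (log2 change 1.07, SE 0.076, adjusted p = 2.3e-08). IFIT1 rose 2.43-fold (log2 change 0.85, SE 0.063, adjusted p = 3.9e-08), IFIT5 1.84-fold (log2 change 0.81, SE 0.076, adjusted p = 4.6e-07) and DTX3L 1.75-fold (log2 change 0.80, SE 0.053, adjusted p = 1e-08). IFIT2, at under 2 TPM, had the ratio 3.87 (log2 change 0.95, SE 0.056, adjusted p = 2.4e-09). STAT2 rose 1.27-fold (log2 change 0.33, SE 0.079, adjusted p = 0.0027). NLRC5 rose 2.16-fold (log2 change 0.55, SE 0.072), and no p is given because its rise was built in. On the falling side IFI44 went to 0.255 of its vehicle level (log2 change -1.05, SE 0.066, adjusted p = 5.2e-09), B2M to 0.681 (log2 change -0.55, SE 0.054, adjusted p = 8.8e-07) and TAP2 to 0.822 (log2 change -0.27, SE 0.063, adjusted p = 0.0028). ISG15 (log2 change 0.0020, SE 0.16), IRF9 (log2 change -0.083, SE 0.086, adjusted p = 0.47), TAP1 (log2 change 0.083, SE 0.091, adjusted p = 0.49) and IRF7 (log2 change 0.20, SE 0.17, adjusted p = 0.36) did not pass. These are limma tests over all 18 libraries of log2(TPM + 1) values, a scale that shrinks the change of genes at low levels, with Benjamini-Hochberg adjustment over all genes tested. With the mitochondrial rows kept in the total, 12 of 27 tested members were called (10 rose, 2 fell), and the calls of TAP2 (-0.29, adjusted p = 0.21) and STAT2 (0.28, adjusted p = 0.31) were lost.

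**Figure D2:**
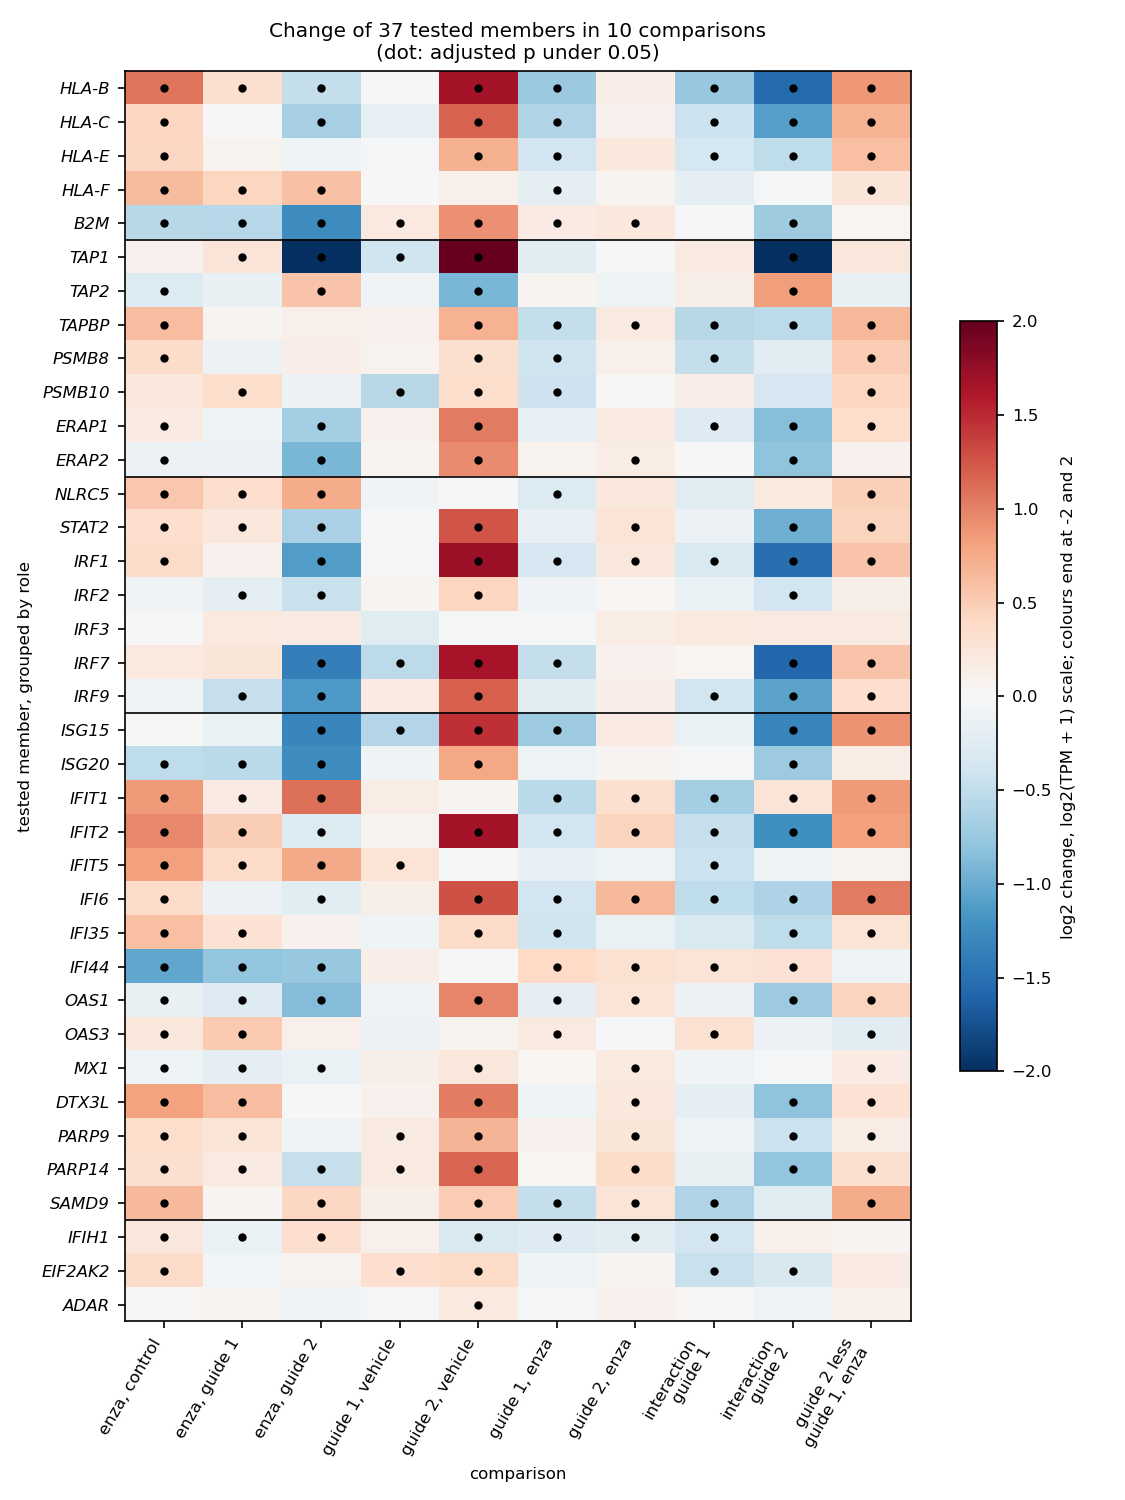
Change of the 37 tested members (rows, grouped by role, with lines between the groups) in the 10 comparisons (columns), as a colour scale of log2 change on the log2(TPM + 1) scale that ends at -2 and 2; a dot marks an adjusted p under 0.05 by limma. In the first column HLA-B (1.07) and IFI44 (-1.05) are the extremes, and TAP1 in the columns with the libraries labelled guide 2 in vehicle runs past the end of the scale (2.25, -2.16 and -2.24).

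With guide 1, fewer members responded to enzalutamide, and HLA-B, HLA-C, HLA-E and IFIT1 responded less than in control cells. DTX3L, OAS3, IFIT2, HLA-F and IFIT5 rose, and IFI44, B2M, IRF9, ISG20 and OAS1 fell. The calls of NLRC5, HLA-F and ISG20 were again built into the filter. In all 14 tested members rose and 8 fell (59.5% called), against 42.8% of all genes tested called, 19.5% higher and 23.3% lower, and the median change was 0.055 over the members and -0.0044 over all genes tested. DTX3L rose 1.55-fold (log2 change 0.62, SE 0.053, adjusted p = 3e-07), OAS3 1.504-fold (log2 change 0.52, SE 0.059, adjusted p = 5.6e-06) and IFIT5 1.33-fold (log2 change 0.38, SE 0.076, adjusted p = 0.00094). PSMB10 rose 1.26-fold (log2 change 0.35, SE 0.12, adjusted p = 0.033), and NLRC5, given without a p, 1.68-fold (log2 change 0.33, SE 0.072). IFI44 fell to 0.418 of its level (log2 change -0.78, SE 0.066, adjusted p = 2.5e-07), B2M to 0.670 (log2 change -0.57, SE 0.054, adjusted p = 9.5e-07) and IRF9 to 0.697 (log2 change -0.46, SE 0.086, adjusted p = 0.00065). STAT2 rose 1.16-fold (log2 change 0.21, SE 0.079, adjusted p = 0.043), and ISG15 did not pass (log2 change -0.13, SE 0.16, adjusted p = 0.52). The guide 1 vehicle libraries, which differed in mitochondrial share, also differed as a baseline. Against library 3 alone, a single library chosen after seeing the data and so given without a test, the change of PSMB10 was -0.043, of STAT2 0.0044, of NLRC5 0.16 and of ISG15 -0.65. Leaving out guide 1 vehicle library 1 or 2 or guide 1 enzalutamide library 1 or 2 also ended the calls of PSMB10 and STAT2, as leaving out guide 1 enzalutamide library 3 did for STAT2. A fit of these 6 libraries alone called 11 members, and with the mitochondrial rows kept 12 of 27 were called (11 rose, 1 fell, with a median of 0.23 over all genes) and the calls of B2M (-0.23, adjusted p = 0.18) and IRF9 (-0.14, adjusted p = 0.43) were lost.

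The interaction of guide 1 with enzalutamide tests that difference directly. Its value was below 0 for HLA-B, HLA-C, HLA-E, TAPBP, PSMB8, ERAP1, IRF1, IRF9, IFIT1, IFIT2, IFIT5, IFI6, SAMD9, IFIH1 and EIF2AK2, and above 0 for OAS3 and IFI44. That makes 15 of 37 lower and 2 higher, against 26.8% of all genes tested called, 15.2% lower and 11.6% higher. IFIH1 was tested only through control cells in enzalutamide, so its value below 0 was built into the filter. The median was -0.18 over the tested members and -0.015 over all genes tested. HLA-B responded less with guide 1 by -0.75 (SE 0.11, adjusted p = 0.00017), and IFIT1 by -0.68 (SE 0.089, adjusted p = 7.5e-05). SAMD9 (log2 change -0.60, SE 0.11, adjusted p = 0.001) and TAPBP (log2 change -0.56, SE 0.071, adjusted p = 5.5e-05) also responded less. OAS3 responded more (log2 change 0.30, SE 0.083, adjusted p = 0.015), and IFI44 fell less (log2 change 0.26, SE 0.093, adjusted p = 0.048). IRF9 was called (log2 change -0.38, SE 0.12, adjusted p = 0.035), while B2M (log2 change -0.024, SE 0.077, adjusted p = 0.85), NLRC5 (log2 change -0.21, SE 0.1, adjusted p = 0.14), STAT2 (log2 change -0.12, SE 0.11, adjusted p = 0.44) and ISG15 (log2 change -0.14, SE 0.22, adjusted p = 0.69) were not. With the mitochondrial rows kept, where the median of all genes was 0.27, 1 member was higher and 1 lower of 27. The values of HLA-B (-0.39, adjusted p = 0.26), TAPBP (-0.18, adjusted p = 0.53) and SAMD9 (-0.29, adjusted p = 0.070) did not pass there. Neither did those of OAS3 (0.53, adjusted p = 0.064) and IRF9 (-0.028, adjusted p = 0.93). With array weights 29 members were called (5 higher, 24 lower), against 58.7% of all genes tested. The calls of IFI44 and IRF9 were lost without 9 and 7, respectively, of the 12 libraries when each was left out in turn. A limma fit of these 12 libraries alone also lost both (IFI44 adjusted p = 0.072, IRF9 adjusted p = 0.074).

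In enzalutamide the members separated by guide. Among the 42 members, untested ones included, the mean was lowest with guide 1 in 33 and highest with guide 2 in 35. The matching shares of all genes were not computed, so these 2 counts have no background. HLA-B, HLA-C, HLA-E, HLA-F, TAPBP, PSMB8, PSMB10, NLRC5, IRF1, IRF7, ISG15, IFIT1, IFIT2, IFI6, IFI35, OAS1, SAMD9 and IFIH1 were lower with guide 1 than with the control guide, and B2M, IFI44 and OAS3 were higher. The call of IFIH1 was built into the filter, as above. These 18 lower and 3 higher of 37 stood against 30.6% of all genes tested called, 14.3% lower and 16.3% higher, and the median was -0.19 against 0.00068 over all genes tested. With guide 1 HLA-B had 0.586 of its control level (log2 change -0.74, SE 0.076, adjusted p = 3.8e-06), HLA-C 0.656 (log2 change -0.60, SE 0.089, adjusted p = 0.00012), ISG15 0.514 (log2 change -0.73, SE 0.16, adjusted p = 0.0026) and IFIT1 0.592 (log2 change -0.53, SE 0.063, adjusted p = 1.6e-05). NLRC5 had 0.701 (log2 change -0.28, SE 0.072, adjusted p = 0.0085), while STAT2 (log2 change -0.16, SE 0.079, adjusted p = 0.14) and IRF9 (log2 change -0.21, SE 0.086, adjusted p = 0.077) did not pass. Each of them passed under 4 alternatives, IRF9 at adjusted p = 0.017 to 0.043 and STAT2 at adjusted p = 0.0093 to 0.03. On the higher side were OAS3 at 1.15 (log2 change 0.18, SE 0.059, adjusted p = 0.03) and B2M at 1.13 (log2 change 0.17, SE 0.054, adjusted p = 0.027). With the mitochondrial rows kept 9 of 27 members were called (1 higher, 8 lower) and HLA-C was not (-0.70, adjusted p = 0.051). The calls of B2M and OAS3 were each lost without any 1 of 5 libraries (B2M: control 1, 2 or 3, or guide 1 library 1 or 3; OAS3: control 2 or 3, or guide 1 library 1, 2 or 3).

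Guide 2 in enzalutamide differed from the control by less and in the other direction. IFI6, IFIT2, PARP14, IFIT1, IFI44, SAMD9, OAS1, PARP9, DTX3L, MX1, STAT2, IRF1, B2M, TAPBP and ERAP2 were higher and IFIH1, which was tested only because control cells in enzalutamide reached 1 TPM, was lower. That is 15 higher and 1 lower of 37, against 14.0% of all genes tested called, 8.97% higher and 5.02% lower, with a median of 0.14 against 0.018. By group, 10 of 15 tested effectors were higher, against 1 of 5 class I chains, 2 of 7 peptide supply genes and 2 of 7 regulators. Of these regulators IRF1 was tested only through libraries labelled guide 2, so its call was built into the filter. IFI6 was 1.61 times its control level (log2 change 0.65, SE 0.064, adjusted p = 9.2e-06), IFIT2 1.56 times (log2 change 0.44, SE 0.056, adjusted p = 8.5e-05), PARP14 1.33 times (log2 change 0.37, SE 0.052, adjusted p = 0.00024) and IFIT1 1.32 times (log2 change 0.31, SE 0.063, adjusted p = 0.0037). STAT2 (log2 change 0.27, SE 0.079, adjusted p = 0.032) and B2M (log2 change 0.20, SE 0.054, adjusted p = 0.022) passed, and HLA-B (log2 change 0.13, SE 0.076, adjusted p = 0.34), NLRC5 (log2 change 0.20, SE 0.072, adjusted p = 0.079), IRF9 (log2 change 0.13, SE 0.086, adjusted p = 0.42) and ISG15 (log2 change 0.16, SE 0.16, adjusted p = 0.6) did not. NLRC5 passed under 4 alternatives (adjusted p = 0.0025 to 0.045). Without control enzalutamide library 2 or guide 2 enzalutamide library 1 the count was 10. STAT2 was lost without any 1 of the libraries except control 3, B2M without any except guide 2 library 3 and with median-of-ratios scaling (0.17, adjusted p = 0.067), and with the mitochondrial rows kept only 2 of 27 members were called.

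A direct test of guide 2 against guide 1 in enzalutamide called 24 members higher with guide 2 and 1 lower. IRF1 and PSMB8 were tested only through libraries labelled guide 2, so a higher level of either here was built into the filter. The background was 41.0% of all genes tested called, 22.2% higher and 18.8% lower, and the medians were 0.33 for the tested members and 0.029 for all genes tested. IFI6 was 2.16 times higher with guide 2 (log2 change 1.04, SE 0.064, adjusted p = 1.4e-08), ISG15 2.23 times (log2 change 0.89, SE 0.16, adjusted p = 0.00039), HLA-B 1.87 times (log2 change 0.87, SE 0.076, adjusted p = 5.1e-07) and IFIT1 2.23 times (log2 change 0.85, SE 0.063, adjusted p = 9.7e-08). NLRC5 (log2 change 0.48, SE 0.072, adjusted p = 8.8e-05), STAT2 (log2 change 0.44, SE 0.079, adjusted p = 0.00044) and IRF9 (log2 change 0.34, SE 0.086, adjusted p = 0.0059) were higher too. OAS3 was lower, at 0.839 (log2 change -0.23, SE 0.059, adjusted p = 0.0063), and B2M did not pass (log2 change 0.033, SE 0.054, adjusted p = 0.67). With the mitochondrial rows kept, 10 of 27 members were called, all higher with guide 2, and OAS3 (-0.21, adjusted p = 0.30), IRF9 (0.28, adjusted p = 0.23) and STAT2 (0.40, adjusted p = 0.16) were lost. The targeted gene OGDHL had a lower mean with both guides than with the control guide in enzalutamide, while the members called against control were mostly lower with guide 1 and mostly higher with guide 2.

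**Figure D3:**
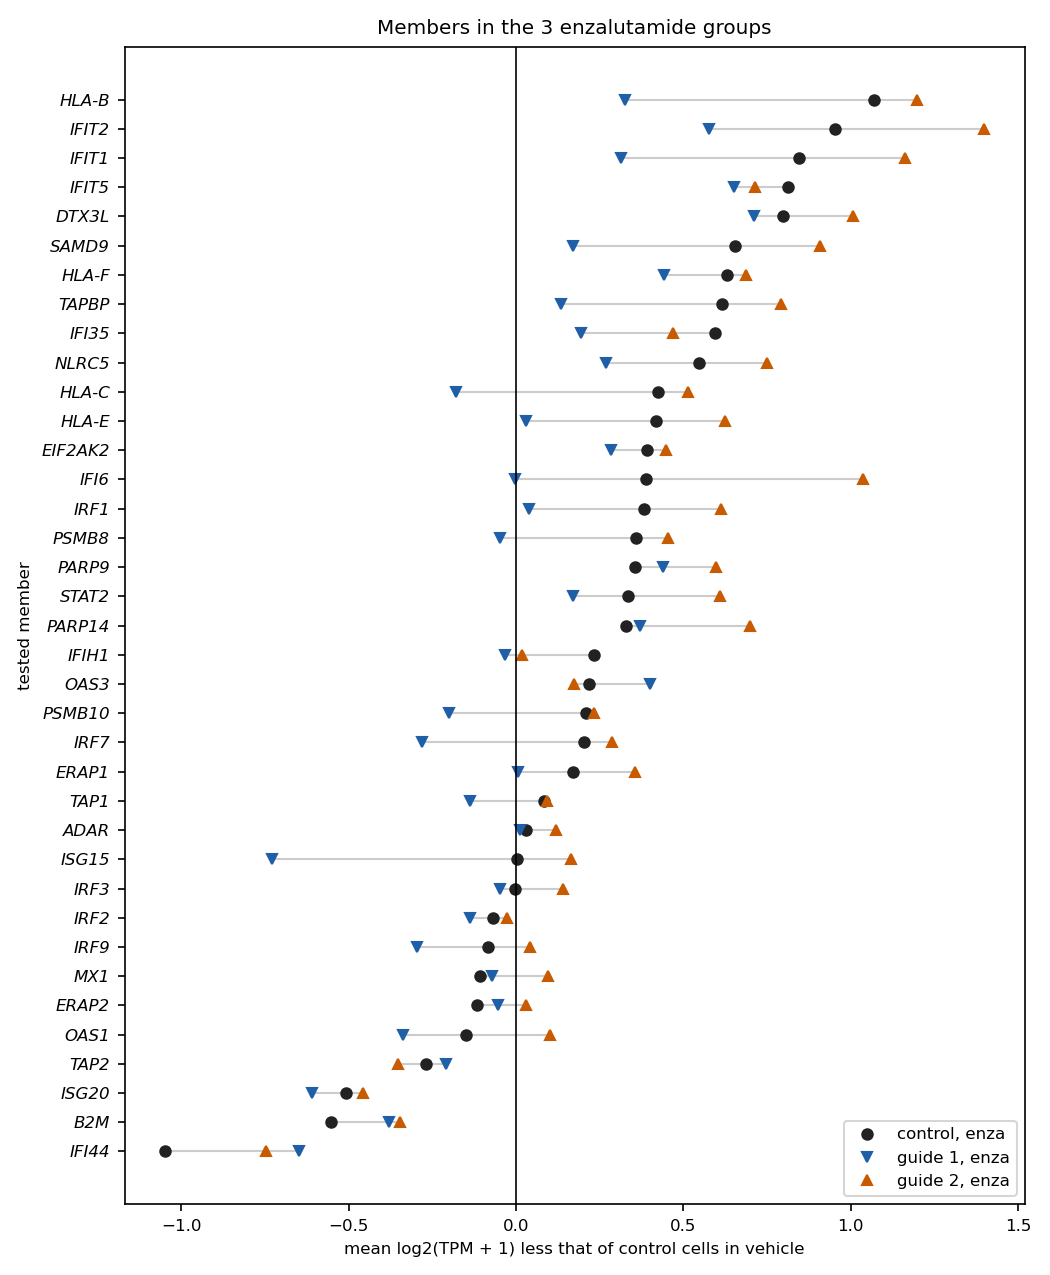
Mean log2(TPM + 1) of each tested member in the 3 enzalutamide groups less its mean in control cells in vehicle, which is the line at 0; circles are control, downward triangles guide 1 and upward triangles guide 2. For HLA-B the values are 1.07, 0.33 and 1.20, for ISG15 0.0020, -0.73 and 0.16, and for IFI44 -1.05, -0.65 and -0.75.

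In vehicle, 9 tested members differed between guide 1 and the control guide. EIF2AK2, IFIT5, B2M, PARP14 and PARP9 were higher and ISG15, PSMB10, IRF7 and TAP1 were lower. The count of 5 higher and 4 lower of 37 (24.3% called) was below the background of 32.2% of all genes tested called, 21.1% higher and 11.1% lower, and the medians were 0.058 and 0.021. EIF2AK2 was 1.31 times its control level (log2 change 0.34, SE 0.084, adjusted p = 0.021), IFIT5 1.23 times (log2 change 0.27, SE 0.076, adjusted p = 0.026), B2M 1.15 times (log2 change 0.20, SE 0.054, adjusted p = 0.025) and PARP14 1.16 times (log2 change 0.19, SE 0.052, adjusted p = 0.025). ISG15 had 0.618 of its control level (log2 change -0.59, SE 0.16, adjusted p = 0.023), PSMB10 0.688 (log2 change -0.55, SE 0.12, adjusted p = 0.017), IRF7 0.676 (log2 change -0.52, SE 0.17, adjusted p = 0.035) and TAP1 0.758 (log2 change -0.39, SE 0.091, adjusted p = 0.018). NLRC5 (log2 change -0.066, SE 0.072, adjusted p = 0.49), STAT2 (log2 change -0.04, SE 0.079, adjusted p = 0.72) and IRF9 (log2 change 0.16, SE 0.086, adjusted p = 0.15) did not pass. The 4 lower genes were lowest in guide 1 vehicle libraries 1 and 2, of 73.8% and 69.9% mitochondrial share, and the part of that share was not tested. Limma called 0 members in a fit of these 6 libraries alone (8 with an unadjusted p under 0.05) and without control library 1 or 3 or guide 1 library 1 or 2 (11 or 12), 18 without guide 1 library 3, and 16 of 27, all lower, with the mitochondrial rows kept, where the median of all genes was -0.32. With array weights it called 29, against 76.4% of all genes tested.

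The libraries labelled guide 2 in vehicle had the highest mean of the 6 groups in 26 of the 42 members. The matching share of all genes was not computed, so that count is not read as a trait of the members. TAP1, IRF1, IFIT2, HLA-B, IRF7 and ISG15 led, and TAP2 and IFIH1 were lower than in the control. Of the 37 tested members 28 were higher and 2 lower, against 74.9% of all genes tested called, 50.9% higher and 24.0% lower, and the median was 0.70 against 0.23. ERAP2 and OAS1 were tested only through these libraries, so their higher level here was built into the filter. Because the median of all genes tested had moved, the split depends on the scaling: median-of-ratios scaling gave 23 higher and 7 lower (all-gene median -0.058), and with quantile normalization 20 and 10 (-0.067). TAP1 was 4.97 times its control level (log2 change 2.25, SE 0.091, adjusted p = 8.8e-12), IFIT2 7.68 times (log2 change 1.67, SE 0.056, adjusted p = 1e-12) and HLA-B 3.31 times (log2 change 1.67, SE 0.076, adjusted p = 3.8e-11). IRF1 was 10.3 times its control level (log2 change 1.73, SE 0.037), and no p is given because its call was built into the filter. B2M was 1.89 times (log2 change 0.92, SE 0.054, adjusted p = 7.8e-10), ISG15 3.17 times (log2 change 1.47, SE 0.16, adjusted p = 7.3e-07), STAT2 2.45 times (log2 change 1.26, SE 0.079, adjusted p = 1.5e-09) and IRF9 2.44 times (log2 change 1.19, SE 0.086, adjusted p = 8.3e-09) the control level. TAP2 had 0.508 of its control level (log2 change -0.91, SE 0.063, adjusted p = 4.7e-09), and NLRC5 did not pass (log2 change 0.0089, SE 0.072, adjusted p = 0.92) but was called lower with quantile normalization (-0.32, adjusted p = 0.00031). Changes here are relative to a profile that differed across the whole transcriptome: NEAT1, a nuclear RNA, was at 650 ± 60 TPM against 192 ± 12 in control vehicle cells. Guide and library set cannot be told apart in these 3 libraries.

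**Figure D4:**
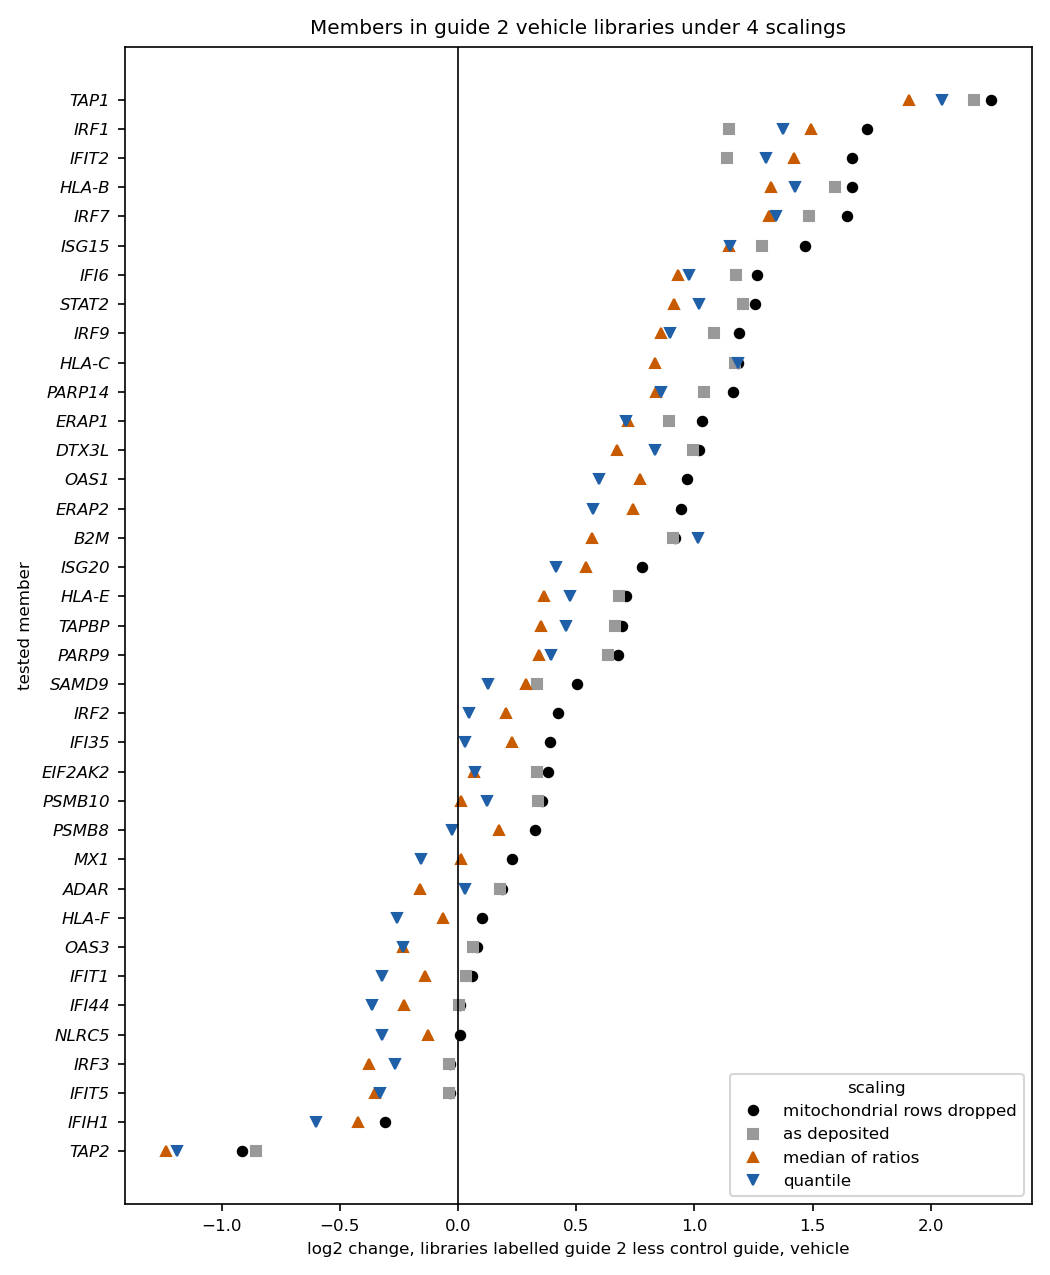
Log2 change of each tested member in the libraries labelled guide 2 against control, in vehicle, under 4 scalings of the libraries; black circles are the scaling used here, squares the values as deposited, upward triangles median-of-ratios and downward triangles quantile normalization. TAP1 is at 2.25 under the scaling used here, and 28 tested members are called higher under it. Members that change sign under at least 1 other scaling include ADAR, PSMB8, MX1 and NLRC5.

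Enzalutamide with guide 2 therefore starts from those libraries. TAP1, IRF7, ISG15, B2M, ISG20, IRF9 and IRF1 fell, and IFIT1, IFIT5, NLRC5, HLA-F and TAP2 rose. The calls of NLRC5, HLA-F and ISG20 were built into the filter here too, so NLRC5 and HLA-F are given without a p. A fall of ERAP2 and OAS1 was also built in, because both were tested only through the libraries labelled guide 2 in vehicle. In all 7 tested members rose and 19 fell (70.3% called), close to the background of 72.6% of all genes tested called, 23.0% higher and 49.7% lower, with medians of -0.13 and -0.20. The split was 17 and 16 with median-of-ratios scaling (all-gene median 0.048) and 18 and 16 with quantile normalization (0.071), and the signs of MX1, IFI6 and IFIT2 turned under at least 1 of these. IFIT1 rose 2.99-fold (log2 change 1.10, SE 0.063, adjusted p = 5.6e-10), IFIT5 1.75-fold (log2 change 0.75, SE 0.076, adjusted p = 4e-07), HLA-F 2.00-fold (log2 change 0.59, SE 0.051) and TAP2 1.52-fold (log2 change 0.56, SE 0.063, adjusted p = 1.3e-06). TAP1 fell to 0.216 of its vehicle level (log2 change -2.16, SE 0.091, adjusted p = 1.6e-11), IRF7 to 0.361 (log2 change -1.36, SE 0.17, adjusted p = 4e-06), ISG15 to 0.362 (log2 change -1.30, SE 0.16, adjusted p = 3e-06) and B2M to 0.415 (log2 change -1.26, SE 0.054, adjusted p = 2e-11). NLRC5 rose 2.67-fold (log2 change 0.74, SE 0.072), STAT2 fell to 0.631 (log2 change -0.65, SE 0.079, adjusted p = 3.1e-06) and IRF9 to 0.424 (log2 change -1.15, SE 0.086, adjusted p = 1.4e-08).

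The interaction of guide 2 with enzalutamide, which rests on the same libraries, was lower in 23 of 37 tested members and higher in 3. The background was 63.2% of all genes tested called, 43.7% lower and 19.5% higher, and the medians were -0.52 and -0.20. Median-of-ratios scaling gave 8 higher and 20 lower, and quantile normalization gave 9 and 19. ERAP2 and OAS1 were tested only through the libraries labelled guide 2 in vehicle, so a lower value of either was built into the filter. TAP1 (log2 change -2.24, SE 0.13, adjusted p = 1.2e-09), IRF7 (log2 change -1.56, SE 0.24, adjusted p = 4.7e-05) and HLA-B (log2 change -1.54, SE 0.11, adjusted p = 1.2e-08) were lower. IRF1 was lower too (log2 change -1.50, SE 0.052), given without a p because it was tested only through libraries labelled guide 2. TAP2 (log2 change 0.83, SE 0.089, adjusted p = 1.3e-06), IFI44 (log2 change 0.29, SE 0.093, adjusted p = 0.014) and IFIT1 (log2 change 0.26, SE 0.089, adjusted p = 0.021) were higher, the last not without control enzalutamide library 3 (0.23, adjusted p = 0.051) and neither of IFI44 (0.14, adjusted p = 0.20) and IFIT1 (0.13, adjusted p = 0.26) with the mitochondrial rows kept. B2M (log2 change -0.71, SE 0.077, adjusted p = 1.3e-06), IRF9 (log2 change -1.06, SE 0.12, adjusted p = 2.6e-06), STAT2 (log2 change -0.98, SE 0.11, adjusted p = 2.3e-06) and ISG15 (log2 change -1.30, SE 0.22, adjusted p = 0.00013) were lower, and NLRC5 did not pass (log2 change 0.20, SE 0.1, adjusted p = 0.11). NLRC5 was called under 6 alternatives, with 0.31 (adjusted p = 0.01) for median-of-ratios scaling and 0.48 (adjusted p = 0.00027) for quantile normalization. The comparisons in this report share control, guide or drug libraries, so their values stand side by side and are not independent of each other.

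Other genes of the pathway came from lists that are not members. Of 10 interferon genes IFNL1 alone was in the table, with group means of 0 to 0.060 TPM. The receptor chain IFNAR1 was at 20.4 to 27.5 TPM as group means and IFNAR2 at 2.19 to 3.00, and the kinase TYK2 at 7.45 to 14.0, while JAK1 was at 0.175 to 0.543 TPM in every group. The share of all genes tested that was called with enzalutamide in control cells, 47.9%, is the background of the counts that follow. Of 6 tested receptors and kinases, 2 rose with enzalutamide in control cells (IFNGR2 0.26, adjusted p = 0.00031; IL10RB 0.25, adjusted p = 0.0023) and 0 fell, by limma, and with guide 1 in enzalutamide these same 2 were lower than in control cells (IFNGR2 -0.21, adjusted p = 0.0037; IL10RB -0.32, adjusted p = 0.00081). Of 6 negative regulators 3 rose with enzalutamide in control cells, with SOCS3, an inhibitor of JAK signalling, at 1.13 (adjusted p = 2.5e-07). Of 7 tested nucleic acid sensing genes 3 rose and 3 fell: the sensor TLR3 (0.54, adjusted p = 9.9e-08) and the adaptor MAVS (0.45, adjusted p = 7.2e-07) rose, and STING1, the adaptor of DNA sensing, fell (-0.93, adjusted p = 9.5e-07).

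Among 23 tested interferon-stimulated genes outside the set, enzalutamide in control cells raised 8 and lowered 8 (69.6% called, against 47.9% of all genes tested), with a median of -0.0056. TDRD7 rose (0.73, adjusted p = 1.8e-10), and HERC5, the main ligase that attaches ISG15 to proteins, and its relative HERC6 fell (-1.98, adjusted p = 3.3e-14 and -1.33, adjusted p = 7.1e-12). HERC5 went from 3.93, 4.09 and 3.79 TPM to 0.268, 0.236 and 0.252 TPM, with no overlap. In enzalutamide 3 of these 23 were higher and 12 lower with guide 1 than in control cells, against 30.6% of all genes tested called, and 9 were higher with guide 2 with 0 lower by limma, against 14.0%. LGALS3BP, a secreted glycoprotein, was among the called genes in both (-1.09, adjusted p = 1.9e-05 with guide 1 and 0.49, adjusted p = 0.023 with guide 2). Of the 23, 15 were higher and 7 lower in the libraries labelled guide 2 in vehicle, against 74.9% of all genes tested, led by TRIM22, which had 0.122, 0.144 and 0.110 TPM in control and 18.02, 20.07 and 19.95 TPM there (log2 change 4.17). SOCS1 had a log2 change of 2.50 there. Both passed the filter only through those libraries, so their calls were built in and no p is given. TLR3 (1.85, adjusted p = 2e-14) and STING1 (2.11, adjusted p = 2.3e-11) were higher there as well.

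Of 14 class I folding and constitutive proteasome genes, enzalutamide in control cells raised 1 and lowered 4 (35.7% called, against 47.9% of all genes tested). PSME1, a subunit of the proteasome activator, rose (0.62, adjusted p = 8.9e-10), and the constitutive catalytic subunit PSMB6 fell (-0.30, adjusted p = 0.0037). With guide 1 in enzalutamide PSME1 was lower than in control cells (-0.40, adjusted p = 5.4e-07), and with guide 2 it was higher (0.19, adjusted p = 0.0013). Of 4 tested class II presentation genes 2 rose and 2 fell with enzalutamide in control cells: HLA-DRA (0.99, adjusted p = 1.9e-08) and HLA-DPA1 (0.57, adjusted p = 1e-06) rose, and the loading factors HLA-DMA (-1.27, adjusted p = 1.6e-09) and HLA-DMB (-1.22, adjusted p = 9.7e-09) fell.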

How the data were processed

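RNA from 18 samples of 16D cells was sequenced as stranded, paired-end mRNA libraries, per the labels' protocols. The authors deposited 1 table of TPM for 37347 rows. STAR and GRCh38 are named without a version in the submitters' processing notes. How reads were counted, and against which annotation, is not given in the sources used here. Groups came from the sample labels.

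From the deposited TPM, 37 MT- rows were dropped and each library was rescaled to 1000000. The 10345 rows without a gene name stayed in the total (15.2% to 20.4% of it) and were not tested. Symbols of 2 to 4 rows were summed, and 3 symbols of 5 or more rows (69 rows) were left out, which left 26863. The 16067 genes with at least 1 TPM in at least 3 libraries were tested on log2(TPM + 1) with limma 3.58.1 (R 4.3.3), as 6 group means with a trended variance and 12 residual degrees of freedom. P-values were adjusted by Benjamini and Hochberg over all genes tested, at a threshold of 0.05. A fold is a ratio of mean TPM. The fit was tested on simulated data.

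Per-library values are given for up to 4 members in each direction and comparison, by size of change among called members that reach 2 TPM in the higher group, and for B2M, NLRC5, IRF9, STAT2 and ISG15 whatever their change. From the other pathway lists up to 2 called genes in each direction were eligible. The members and lists were chosen with earlier results of these data known. Coordinates are from GENCODE release 29 and promoters from RefSeq (GRCh38.p14). Alternatives were other scalings (TPM as deposited, median-of-ratios, quantile), pseudocounts of 0.1 and 5, no filter or 5 TPM, own libraries only, array weights, a replicate block and each of the 18 libraries left out. Leaving out all 3 libraries labelled guide 2 in vehicle, and using guide 1 vehicle library 3 alone, were added after seeing the data. No 2 libraries were identical. Python 3.11.15, numpy 2.4.6, pandas 2.3.3 and matplotlib 3.10.9 were used.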

Additional observations from a re-analysis of the deposited data

Results flagged for a closer look

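The response of 7 named members to enzalutamide differed between guide 1 and control cells by the interaction term of limma (log2 scale, Benjamini-Hochberg adjustment over all genes tested). The response was larger or less negative with guide 1 for OAS3 (0.30, adjusted p = 0.015) and IFI44 (0.26, adjusted p = 0.048). It was smaller or more negative for HLA-B (-0.75, adjusted p = 0.00017), IFIT1 (-0.68, adjusted p = 7.5e-05), SAMD9 (-0.60, adjusted p = 0.001), TAPBP (-0.56, adjusted p = 5.5e-05) and IRF9 (-0.38, adjusted p = 0.035). With the mitochondrial rows kept, OAS3, HLA-B, SAMD9, TAPBP and IRF9 lost the call. The calls of IFI44 and IRF9 were also lost when any 1 of several libraries was left out.

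The interaction with guide 2 was called for 11 named members, and it rests on the libraries labelled guide 2 in vehicle, which stand apart from the other 15. It was above 0 for TAP2 (0.83, adjusted p = 1.3e-06), IFI44 (0.29, adjusted p = 0.014) and IFIT1 (0.26, adjusted p = 0.021). It was below 0 for TAP1 (-2.24, adjusted p = 1.2e-09), IRF7 (-1.56, adjusted p = 4.7e-05) and HLA-B (-1.54, adjusted p = 1.2e-08). It was also below 0 for IRF1 (-1.50), which was tested only through libraries labelled guide 2, so no p is given. ISG15 (-1.30, adjusted p = 0.00013), IRF9 (-1.06, adjusted p = 2.6e-06), STAT2 (-0.98, adjusted p = 2.3e-06) and B2M (-0.71, adjusted p = 1.3e-06) were below 0 as well.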

How the results depend on the processing

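Over all alternatives 1667 values of named members kept their side of the threshold, and those called also kept their direction. Another 148 lost the call in the same direction, 29 gained it and 6 reversed. Counts of called members that moved by more than 1.5 times are given here. With TPM as deposited, where 27 members were tested, the members called were 12 for enzalutamide in control cells, 12 with guide 1, 16 for guide 1 in vehicle, 9 for guide 1 and 2 for guide 2 in enzalutamide, 2 for the guide 1 interaction and 10 for guide 2 against guide 1. In guide 1 against control in vehicle the signs of EIF2AK2 (-0.089), IFIT5 (-0.16), B2M (-0.30) and PARP14 (-0.20) turned there. With a filter at 5 TPM, which left 22 members, the counts were 15, 11 and 13 for enzalutamide in control, guide 1 and guide 2 cells, 19 for the libraries labelled guide 2 in vehicle, 10 and 8 for guides 1 and 2 in enzalutamide, 10 and 17 for their interactions and 15 for guide 2 against guide 1. Own libraries gave 11 for enzalutamide with guide 1 and 0 for guide 1 in vehicle (8 with an unadjusted p under 0.05, limma). Array weights gave 29 for guide 1 in vehicle (76.4% of all genes called) and 29 for the guide 1 interaction (58.7%). Guide 1 vehicle library 3 alone, an arm of 1 library assumed to vary like the other groups, gave 0 for guide 1 in vehicle (3 with an unadjusted p under 0.05, and 25 of 16067 genes called) and turned PSMB10 in the guide 1 response to -0.043. Quantile normalization turned NLRC5 in the libraries labelled guide 2 in vehicle to -0.32. Leaving out each library in turn gave 25 to 27, 17 to 25 and 26 to 27 members for enzalutamide in control, guide 1 and guide 2 cells, 0 to 18 and 29 to 30 for guides 1 and 2 in vehicle, and 17 to 19 and 10 to 14 for guides 1 and 2 in enzalutamide. The interactions gave 13 to 23 and 24 to 28, and guide 2 against guide 1 gave 23 to 25. Without the 3 libraries labelled guide 2 in vehicle, enzalutamide called 22 higher and 7 lower in control cells. Depth is not recorded in TPM and sets an unknown limit on members under 1 TPM.

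Samples share replicate numbers, but same-numbered samples deviated together weakly at most (correlations from -0.29 to 0.11), so the numbers were not used as pairs. For guide 1 against control, in vehicle and in enzalutamide, each sample correlated best with its own number, at 0.051 to 0.11. In enzalutamide a replicate block there called 26 members, against 23 from the same libraries without it. With a replicate block on a comparison's own libraries 6 members were called for enzalutamide with guide 1, 0 for guide 1 in vehicle (8 with an unadjusted p under 0.05, limma) and 9 for the guide 1 interaction.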
